A study of Mus musculus with 3 samples.

Results

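The 10 genes described here are H19, Igf2, Dlk1, Meg3, Rian, Grb10, Plagl1, Mest, Peg3 and Igf2r, taken by name from the 32093 genes of the annotation because they are known imprinted regulators of growth, and all 10 were found. Their chromatin was read in long-term hematopoietic stem cells (LT-HSCs) of the bone marrow. The donors were wild-type females, 24 months old. The study's methods give the strain as C57BL/6J, an inbred strain, so the maternal and paternal copies carry the same sequence and cannot be told apart by it. The marrow was enriched for c-Kit and the LT-HSCs were sorted by flow cytometry, then processed by DOGMA-seq, an assay in which accessible chromatin (ATAC), RNA and oligonucleotide-tagged antibodies are read from the same cells. There were 3 libraries from 1 pool of cells, how many animals were pooled was not stated, and the RNA matrix was not analysed here. All cells shared this genotype, age and sex, and the groups compared below were groups of cells of the same pool that differed in an antibody count.

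Imprinted genes are expressed mainly from the copy inherited from one parent. The choice is held by control regions that are methylated on one parental copy and open on the other, kept through cell divisions by factors such as ZFP57 with TRIM28, and read by factors such as CTCF and YY1. Many imprinted genes act on fetal growth and on tissue stem cells: the growth factor IGF2 is cleared by the receptor IGF2R, signalling through the insulin and IGF1 receptors is damped by the adaptor GRB10, and H19 and the Dlk1-Meg3 cluster have been linked to the quiescence of LT-HSCs.

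Of the 3724 barcodes with antibody counts, 3629 with at least 10 antibody tags were kept, with a median of 10300 nuclear fragments per cell (3859 to 45151) and 38554133 in all. An ATAC fragment is a stretch of DNA between 2 transposase cuts, so its count measures how open the chromatin is, not how much RNA is made. Because there was 1 pool, cells are not replicates and no test was possible, and all intervals below are exact 95% intervals (Poisson for levels, conditional binomial for ratios, binomial for shares) that cover counting error only. Over the 10 genes used as HSC markers (among them Mecom, Hlf and Procr), the promoters ranked at a median percentile of 61.4 among all genes, against 35.3 over markers of T cells, 39.4 of erythroid cells, 41.2 of myeloid cells, 44.9 of B cells, 53.2 of endothelium, 61.2 of stroma and 64.9 of megakaryocytes. The HSC label was thus not set apart from stroma and megakaryocytes by promoter openness alone.

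All 10 imprinted genes held fragments. Counted from 2 kb upstream to the annotated end, they held 12955 fragments, or 336 CPM (330 to 342), where CPM is fragments counted per 1000000 nuclear fragments. Their promoters, 1 kb on each side of the annotated start, ranked between percentile 26.3 for Rian and 73.9 for Peg3, with a median of 48.9 where the median of all genes is 50. These ranks rest on annotated starts, and in 4 of the genes a RefSeq start further downstream held more fragments, with 396 against 16 for Mest, 215 against 42 for Plagl1, 497 against 69 for Igf2 and 745 against 227 for Grb10. At annotated starts, the median was 60.6 over 45 other imprinted genes (3.81 to 97.3) and 65.6 over 24 genes of the IGF pathway (26.3 to 98.0). Among 9 factors that set or read imprints, the median promoter percentile was 48.3. Percentiles reached 99.0 for Yy1, 97.2 for Ctcf and 83.3 for Dnmt3a. Zfp445 ranked at 66.7, Zfp57 at 48.3, Dppa3 at 41.9, Dnmt1 at 38.0 and Ctcfl at 32.4. Trim28 ranked at 21.4 from 6 fragments at its annotated start, although the gene as a whole held 3941 fragments and ranked at 84.6 per kb. Dnmt1 likewise had 31 fragments at its annotated start, while the gene as a whole held 2757 and ranked at 66.8 per kb.

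In CPM per kb of gene, Igf2 was the most open of the 10 at 1.79 (1.69 to 1.89), followed by Peg3 at 1.56 (1.49 to 1.64). H19 at 1.09 (0.942 to 1.26), Igf2r at 1.05 (1.01 to 1.08) and Dlk1 at 0.918 (0.835 to 1.01) came next, and the interval of H19 overlapped both of the others. Mest at 0.830 (0.775 to 0.887) overlapped Dlk1. Below them stood Grb10 at 0.696, Meg3 at 0.480, Plagl1 at 0.348 and Rian at 0.152 (0.137 to 0.169), none of which overlapped its neighbours in the order. The median of all genes on this scale was 0.624, so that 7 of the 10 lay above it. Since fragments have no strand, overlapping stretches share them. Counted with 2 kb upstream, Igf2r shares 30354 bp with the antisense RNA gene Airn. Igf2 counted in this way shares 18048 bp with Gm49394 and 9124 bp with Igf2os. Peg3 and Usp29, which start in opposite directions from nearly the same place, do not overlap as genes. The 2 kb upstream of Peg3 shares 1854 bp with Usp29.

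**Figure D1:**
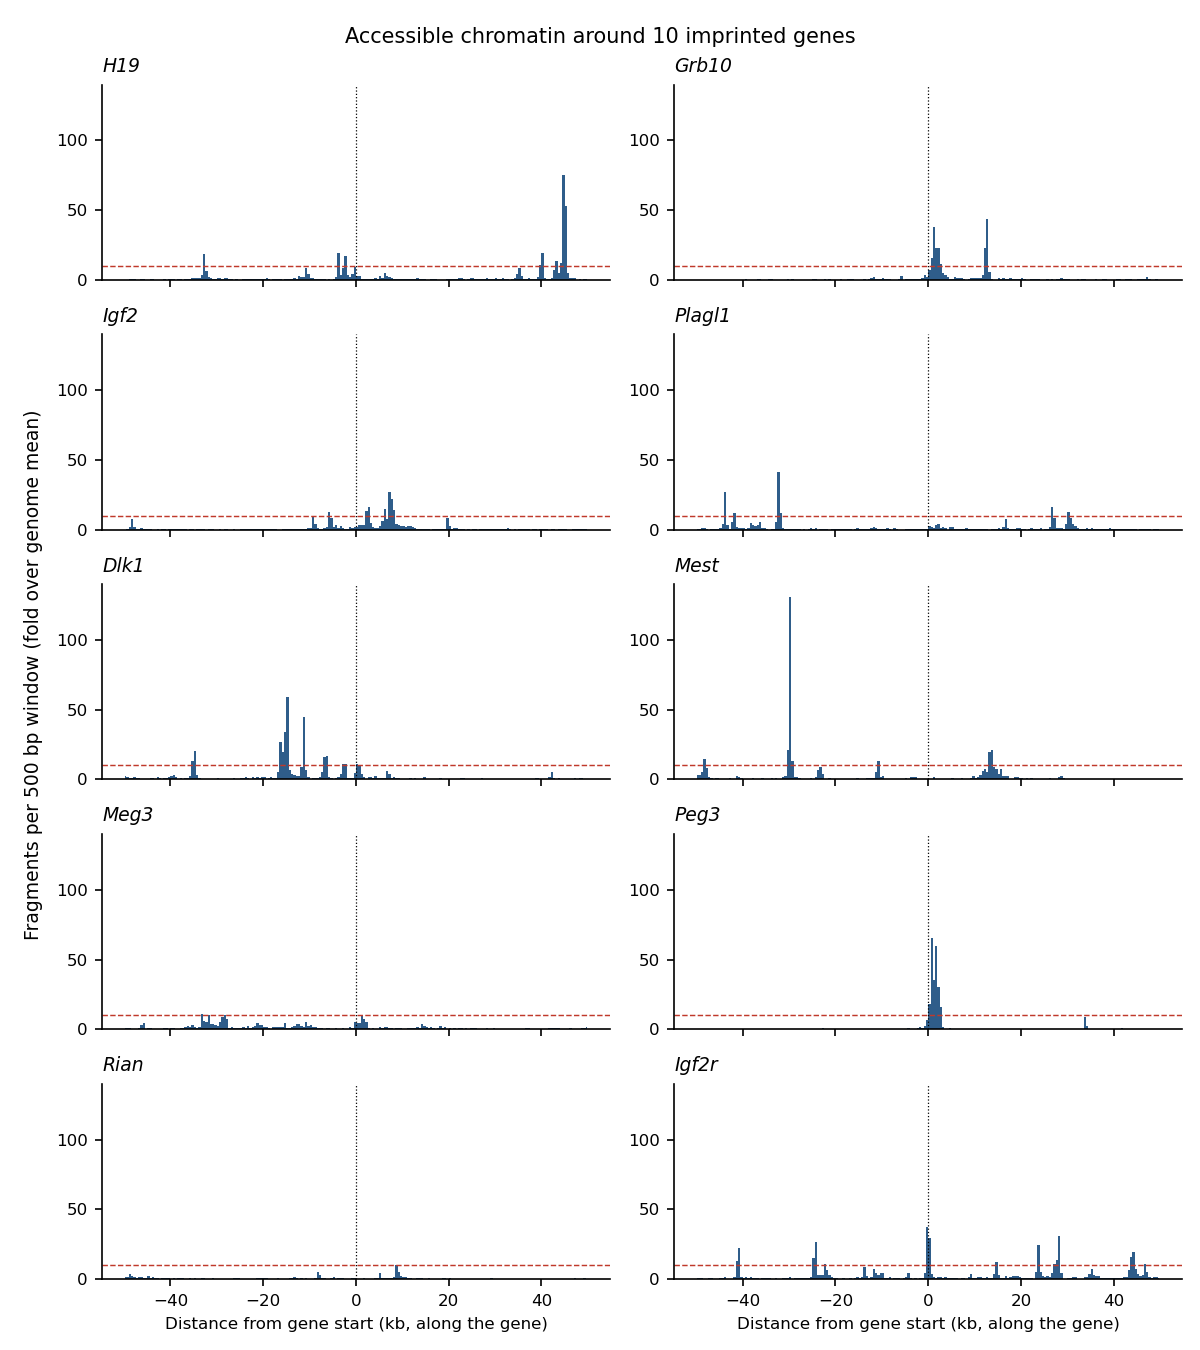
Each panel plots the fragments of the kept cells in 500 bp windows as fold over the genome mean, against the distance in kb from the annotated gene start along the direction of the gene, for 10 imprinted genes. The dashed line marks 10-fold, above which windows were joined into 42 open sites, and the sharpest peak, 30 kb upstream of Mest, is the start of the neighbour Cep41.

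Runs of 500 bp windows at 10 or more times the genome mean, counted by fragment centres, gave 42 open sites within 50 kb of the 10 starts. Folds of regions and sites below count every fragment that touches them, unless fragment centres are named. This raises the fold more in short regions than in long ones. There were 9 around Igf2r, 6 each around H19 and Dlk1, 5 each around Igf2 and Plagl1, 4 around Mest, 3 around Meg3, 2 around Grb10 and 1 each around Peg3 and Rian. Of these, 8 lay at an annotated start, 8 in an exon, 13 in an intron and 13 between genes. As the profiles over distance show, the openness of a locus often sat away from the annotated start.

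The growth factor locus comes first. Igf2 (ENSMUSG00000048583.16, mm10 chromosome 7, 142650766 to 142666816, minus strand) encodes the ligand IGF2, and H19 (ENSMUSG00000000031.16, 142575529 to 142578143, minus strand) a long noncoding RNA that is the host of a microRNA. Igf2 held 1243 fragments in 26.5% of the cells, and H19 held 194 in 4.79%. The annotated Igf2 start was nearly closed, at 2.44 times the genome mean. The opening lay inside the gene at a RefSeq start 8012 bp downstream, at 17.6 times the genome mean with 497 fragments in 11.8% of the cells, in a site that is also the start of Igf2os. The H19 start stood at 4.73 times the mean with 134 fragments.

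The imprinting control region of this pair, 2 to 4 kb upstream of H19 (chromosome 7, 142580143 to 142582143), was more open than either annotated start, at 12.9 times the genome mean with 365 fragments in 8.85% of the cells. It is known as a cluster of CTCF sites, at which CTCF on the unmethylated maternal copy separates Igf2 from enhancers beyond H19. The region held 4 matches to the CTCF core motif on either strand, and 0.00312% of windows of the same length around all gene starts held as many. The matches lay 2168, 2623, 3649 and 3893 bp upstream of the H19 start, and both 500 bp open sites of the region covered matches. They are printed with 10 bases on each side, on the minus strand of mm10 and with the core in capitals, because they are the sequence this control region is known for. In cores 1, 3 and 4 the bases TG before the core complete the hexamer TGCCGC of ZFP57, so that these 2 motifs share letters. A match describes the sequence and does not show that a factor was bound.
H19 core 1, chr7:142580301-142580332: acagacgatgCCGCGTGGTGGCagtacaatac
H19 core 2, chr7:142580756-142580787: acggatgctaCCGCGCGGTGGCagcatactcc
H19 core 3, chr7:142581782-142581813: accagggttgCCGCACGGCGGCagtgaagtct
H19 core 4, chr7:142582026-142582057: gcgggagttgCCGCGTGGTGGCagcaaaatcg

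The stretch 5 to 12 kb downstream of the H19 end, where enhancers act on both genes in other tissues, lay below the mean in these cells, at 0.616 times the genome mean (61 fragments). The site with the most fragments near H19 was the start of Mrpl23, a gene of the mitochondrial ribosome, 45 kb downstream, with 1026 fragments.

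Igf2r (ENSMUSG00000023830.14, chromosome 17, 12682406 to 12769664, minus strand) encodes the receptor that carries IGF2 to lysosomes, and held the most fragments of the 10 genes, 3601 in 57.8% of the cells. Its start was open at 18.9 times the genome mean with 535 fragments. Inside the gene lies the start of Airn, the antisense RNA whose promoter is the control region of the locus. The Airn start was open as well, at 13.8 times the mean with 391 fragments. The open site around it held 8 ZFP57 hexamers (TGCCGC, either strand), and 0.0343% of windows of its length around gene starts held as many. Its most covered 300 bases (plus strand, reaching from upstream of the Airn start over its first exon, within an Igf2r intron) are printed with the hexamer in capitals, here read from the other strand as GCGGCA.
Airn start, chr17:12741285-12741584: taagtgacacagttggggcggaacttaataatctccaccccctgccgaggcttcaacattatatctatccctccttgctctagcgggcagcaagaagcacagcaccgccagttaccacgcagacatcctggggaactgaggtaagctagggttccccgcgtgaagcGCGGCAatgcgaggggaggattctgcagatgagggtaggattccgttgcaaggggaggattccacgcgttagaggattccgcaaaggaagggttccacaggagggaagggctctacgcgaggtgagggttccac

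The Dlk1-Meg3 cluster on chromosome 12 holds Dlk1 (ENSMUSG00000040856.17, 109452823 to 109463336, plus strand), a membrane protein of the Notch ligand family, and the noncoding RNA genes Meg3 (ENSMUSG00000021268.17, 109541001 to 109571726, plus strand) and Rian (ENSMUSG00000097451.10, 109603940 to 109661716, plus strand). Dlk1 held 443 fragments in 10.3% of the cells, Meg3 606 and Rian 351 in 8.68%. The Dlk1 start was open at 7.07 times the genome mean, the Meg3 start at 5.02 and the Rian start at 0.353. Of these 3 starts, that of Rian was thus the least open.

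The strongest opening of the cluster lay upstream of Dlk1, between genes. A site of 2000 bp centred 16 kb upstream held 1048 fragments in 23.0% of the cells, 37.0 times the genome mean, and a site of 500 bp centred 11 kb upstream held 380 fragments, 53.7 times the mean. The Dlk1 promoter window itself held 200. The intergenic control region of the cluster, 10 to 16 kb upstream of Meg3, stood at 2.72 times the mean with 231 fragments, although it held 10 ZFP57 hexamers, as many as 0.0436% of windows of its length. The RefSeq promoter of Meg3 (mm10, 300 bases, plus strand, the last bases within the gene) is printed because the count of Meg3 differed between antibody groups below. It held 1 hexamer, in capitals as GCGGCA, a motif in 11.6% of 27025 RefSeq promoters of this length.
Meg3 promoter, chr12:109540746-109541045: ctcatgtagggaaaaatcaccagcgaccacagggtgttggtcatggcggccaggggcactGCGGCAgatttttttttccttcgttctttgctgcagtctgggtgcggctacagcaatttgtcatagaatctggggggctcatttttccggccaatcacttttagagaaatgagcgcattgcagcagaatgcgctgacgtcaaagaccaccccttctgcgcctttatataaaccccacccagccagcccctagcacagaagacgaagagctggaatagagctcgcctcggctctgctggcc

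Grb10 (ENSMUSG00000020176.17, chromosome 11, 11930508 to 12038683, minus strand) encodes the adaptor that damps insulin and IGF1 receptor signalling, and held 2958 fragments in 51.1% of the cells. Its annotated start stood at 8.02 times the genome mean, while a RefSeq start 1263 bp downstream, in a CpG-dense window (220 CpG, matched by 0.308% of windows), stood at 26.3 with 745 fragments. The control region 10 to 14 kb downstream, which in brain serves as the paternal promoter, was open at 10.2 times the mean with 576 fragments, of which 500 lay in a single 1000 bp site. That site held 4 ZFP57 hexamers and 115 CpG. Its most covered 300 bases outside annotated UTRs, in an intron, held none of the 3 motifs but 49 CpG, a number reached by 1.01% of the 300-base promoters. They are printed on the minus strand with each CG in capitals.
Grb10 control region, chr11:12026325-12026624: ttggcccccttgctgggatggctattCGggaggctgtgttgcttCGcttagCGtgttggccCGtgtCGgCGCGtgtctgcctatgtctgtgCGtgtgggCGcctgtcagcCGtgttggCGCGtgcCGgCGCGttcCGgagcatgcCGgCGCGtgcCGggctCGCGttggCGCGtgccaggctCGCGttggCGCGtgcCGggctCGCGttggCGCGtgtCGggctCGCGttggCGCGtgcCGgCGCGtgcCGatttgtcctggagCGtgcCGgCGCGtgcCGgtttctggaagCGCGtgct

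Peg3 (ENSMUSG00000002265.16, chromosome 7, 6703892 to 6730431, minus strand) encodes a zinc finger protein, and Plagl1 (ENSMUSG00000019817.18, chromosome 10, 13060504 to 13131694, plus strand) a zinc finger transcription factor that regulates other imprinted genes. Peg3 had the most open start of the 10, at 30.2 times the genome mean, with 854 fragments. The whole opening was 1 site of 3000 bp that runs from the start shared with Usp29 into Peg3, at 38.1 times the mean with 1615 fragments in 31.9% of the cells. Peg3 with 2 kb upstream held 1717 fragments, so nearly all of its fragments lay in or at the edge of this site.

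The Peg3 control region is known for a tandem array of YY1 sites. The open site held 10 matches to the YY1 core GCCATNTT on either strand, and 0.0343% of windows of its length around gene starts held as many. It also held 8 ZFP57 hexamers (0.112%). The 300 bases with the most YY1 cores (minus strand, in the Peg3 intron) held 3, in capitals. Of RefSeq promoters of this length, 0.0259% held as many and 6.23% held at least 1. The stretch was picked for its cores and the promoters were not, so these shares are no measure of how rare it is.
Peg3 open site, chr7:6727811-6728110: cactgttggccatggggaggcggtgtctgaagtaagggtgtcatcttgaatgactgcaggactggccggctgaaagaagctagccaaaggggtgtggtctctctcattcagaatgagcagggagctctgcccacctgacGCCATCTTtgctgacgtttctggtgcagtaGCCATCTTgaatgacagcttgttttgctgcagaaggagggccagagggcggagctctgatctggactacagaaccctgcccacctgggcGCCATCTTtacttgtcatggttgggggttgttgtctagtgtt

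Plagl1 held 981 fragments in 22.0% of the cells. Its annotated start was closed to near the mean (1.48 times), whereas the RefSeq start 30328 bp downstream, the imprinted promoter, stood at 7.60 times the mean with 215 fragments. That window held 6 ZFP57 hexamers, as many as 0.389% of windows. The RefSeq promoter up to the first annotated UTR base (206 bases, plus strand) held 1 of them, in capitals as GCGGCA. It is shown because the interval of the CD274 ratio at this start, given below, left out 0.
Plagl1 promoter, chr10:13090582-13090787: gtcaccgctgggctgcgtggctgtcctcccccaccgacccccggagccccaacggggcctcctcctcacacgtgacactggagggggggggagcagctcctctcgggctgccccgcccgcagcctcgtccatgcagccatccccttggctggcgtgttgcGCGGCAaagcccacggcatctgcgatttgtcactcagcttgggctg

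Mest (ENSMUSG00000051855.15, chromosome 6, 30723547 to 30748465, plus strand), which encodes an enzyme of the alpha/beta hydrolase fold, held 861 fragments in 19.1% of the cells. It followed the same pattern, with the annotated start closed at 0.565 times the mean and the RefSeq start 14503 bp downstream open with 396 fragments in 9.70% of the cells. This window held 12 ZFP57 hexamers, the highest number of the windows examined here, and 0.00312% of windows around gene starts held as many. The RefSeq promoter table had entries for 9 of the 10 genes, all but H19, and all its 300-base entries are credited to RefSeq on GRCm38, the assembly also called mm10.

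Whether a region was open on 1 or on both chromosome copies of a cell can be approached by counting. Transposase cuts release each stretch of a DNA molecule once, so that fragments from a single copy do not overlap beyond a few bases, and overlapping fragments of 1 cell come from different copies (or from sister chromatids after replication, or from 2 cells in 1 droplet). For each region, pairs of fragments from the same cell that overlapped by at least 20 bp were counted and divided by the number expected from the overlap rate of pairs from different cells. Fragments of a cell that shared an end within 10 bp were counted as 1. This ratio, called relative overlap here, was chosen after the data had been seen, because a simpler share, of cells with 2 or more fragments whose fragments overlapped, was nearly equal on autosomes (39.8%) and on chromosome X (37.3%). That share was 31.5% (27.0 to 36.2, 129 of 410 cells) over the 14 starts and control regions of the imprinted genes.

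Over all autosomal promoters the relative overlap was 0.616, and over chromosome X promoters, of which female cells keep 1 copy active, it was 0.312. Over the 14 regions of the imprinted genes (the 10 annotated starts, the control regions of H19, Grb10 and Meg3, and the Airn start) it was 0.162 (0.089 to 0.272), from 14 overlapping pairs where 86.3 were expected. Over 7 windows planned as control regions (the last 4 of these and the annotated starts of Peg3, Plagl1 and Mest) it was 0.136, from 8 pairs where 58.6 were expected. The annotated Plagl1 and Mest starts, which were nearly closed, added 0 expected pairs, so that this value rests on the other 5 regions. The more open RefSeq starts of Plagl1 and Mest further downstream were not part of it. The upper bounds, 0.272 and 0.269, lay below the values of autosomal promoters in each range of fragment number from 101 upward (0.354 to 0.609), but not below those of chromosome X promoters with 101 to 1600 fragments (0.194 to 0.265). The ratio rises with the number of fragments in a promoter, so each region is compared below with promoters of like fragment number.

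At least 5 pairs were expected in 5 of the 14 regions, and all 5 had a relative overlap below 0.25. The background was 5.6% of autosomal promoters with at least 5 expected pairs and 52.0% of those on chromosome X. Among promoters with 365 to 854 fragments, the range of these 5 regions, it was 6.99% of 4375 autosomal and 52.6% of 173 X promoters. The threshold was chosen after the data had been seen. Together these 5 regions held 10 pairs, where 71.6 were expected between cells and 35.5 at the rate of autosomal promoters of like fragment number. With at least 10 pairs expected it was 3 of 3 regions, against 2.18% of autosomal and 50.2% of X promoters. Of the 14, the Peg3 start alone had 20 or more expected pairs, with a value of 0.164, where 0.542% of autosomal and 50.3% of X promoters fell below 0.25.

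At the shared Peg3 and Usp29 site, 8 pairs were seen where 52.6 were expected, a relative overlap of 0.152 (0.066 to 0.299). Promoters of like fragment number had 0.609 on autosomes and 0.419 on chromosome X, the latter from only 15 promoters. The 98 X promoters with 801 to 1600 fragments had 0.265, within the interval of this site of 1615 fragments. The site also spans 3000 bp, where promoter windows span 1 kb on each side of a start. At the Grb10 control region the relative overlap was 0.122 (0.015 to 0.441) against 0.488 on autosomes. At its open site it was 0.065 (0.002 to 0.362), from 1 pair where 15.4 were expected. The intervals of these regions lay below the autosomal value, and those at Grb10 included the value of like X promoters, 0.263. At the Igf2r start the value was 0.137 (0.017 to 0.496) against 0.488, at the Airn start 0.104 (0.003 to 0.579) against 0.407, and at the H19 control region 0.152 (0.004 to 0.847) against 0.407. These 3 intervals included both the autosomal value and that of like X promoters (0.263 for the Igf2r start, 0.260 for the others), so a difference was not detectable there at this depth.

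The starts of the neighbours Cep41 and Mrpl23 had values of 0.640 (0.461 to 0.865) and 0.691 (0.466 to 0.987) against 0.565 for autosomal promoters of like fragment number. Upstream of Dlk1, the site at 16 kb had 0.635 (0.402 to 0.952), from 23 pairs, and the site at 35 kb 0.871 (0.350 to 1.79), while at the site 11 kb upstream 0 pairs were seen where 7.14 were expected (upper bound 0.516). The RefSeq starts gave 0.255 (0.031 to 0.923) for Mest, 0.328 (0.106 to 0.765) for Grb10 and 0.385 (0.125 to 0.899) for Igf2, so that 0 of these 3 fell below 0.25. Their intervals included both the values of like autosomal promoters (0.407 for Mest, 0.488 for the others) and those of like X promoters (0.260 and 0.263), and an open site next to the Mest start, 13 kb downstream of the annotated one, had 0.210 (0.025 to 0.758). Among the 18 open sites with at least 5 expected pairs, 8 were below 0.25, where 5.6% of autosomal and 52.0% of X promoters were. Some of these sites overlap the 14 regions. The sites held from 164 to 1615 fragments, and a share among promoters of like fragment number was not computed for them. Together the 18 sites held 139 pairs, against 175.6 at the rate of autosomal promoters of like fragment number.

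**Figure D2:**
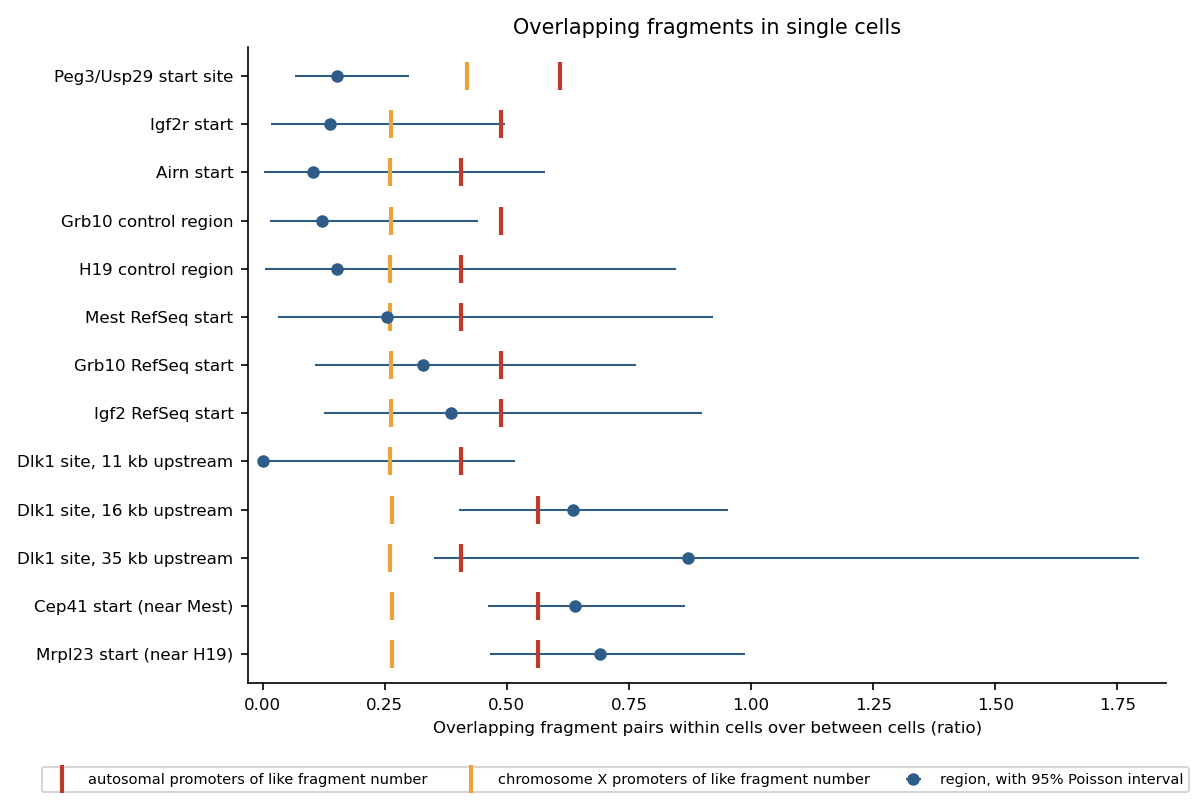
Points give the relative overlap (overlapping fragment pairs within cells over the number expected from pairs between cells, no unit) of 13 open regions at or near imprinted genes, with exact 95% Poisson intervals, beside vertical marks for autosomal and chromosome X promoters of like fragment number. The Peg3/Usp29 site at 0.152 and the Grb10 control region at 0.122 lie left of the autosomal marks with their whole intervals, while the neighbours Cep41 (0.640) and Mrpl23 (0.691) lie to the right of them.

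The study tagged cells with antibodies against surface proteins to tell platelet-biased from multilineage LT-HSCs, with CD61 (integrin beta-3) and CD274 (the immune checkpoint ligand PD-L1) taken as markers of the former and CD357 (the TNF receptor family member GITR) of the latter. For each of these 3, cells above the median count were set against cells at or below it, giving 1365 and 2264 cells for CD357, 1695 and 1934 for CD61, and 1728 and 1901 for CD274. The median nuclear fragments of high and low cells were within 10269 and 10347 for all 3 splits. High cells carried more antibody tags in total, with medians of 35 and 26 for CD357, 33 and 25 for CD61, and 39 and 22 for CD274. Ratios are log2 of CPM in high over low cells. A gene is called here when its ratio passed 0.32 in either direction, the log2 of 5 to 4, among the 20540 genes with at least 200 fragments, which 9 of the 10 imprinted genes had (H19 had 194).

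Summed over the 10 genes, the ratios were near 0 for all 3 antibodies, at 0.02 (-0.04 to 0.07) for CD357, 0.04 (-0.01 to 0.09) for CD61 and 0.01 (-0.04 to 0.06) for CD274. None of the 9 genes was called for CD357 or CD61, where 0.764% and 0.833% of all genes were called higher and 0.998% and 0.623% lower. For CD274, 1 of 9, Meg3, was called higher, where 1.03% of genes were, and 0 of 9 lower, where 1.34% were. The median ratio of the 9 genes was 0.01 for CD357, 0.05 for CD61 and -0.03 for CD274, against 0.00 over all genes tested.

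**Figure D3:**
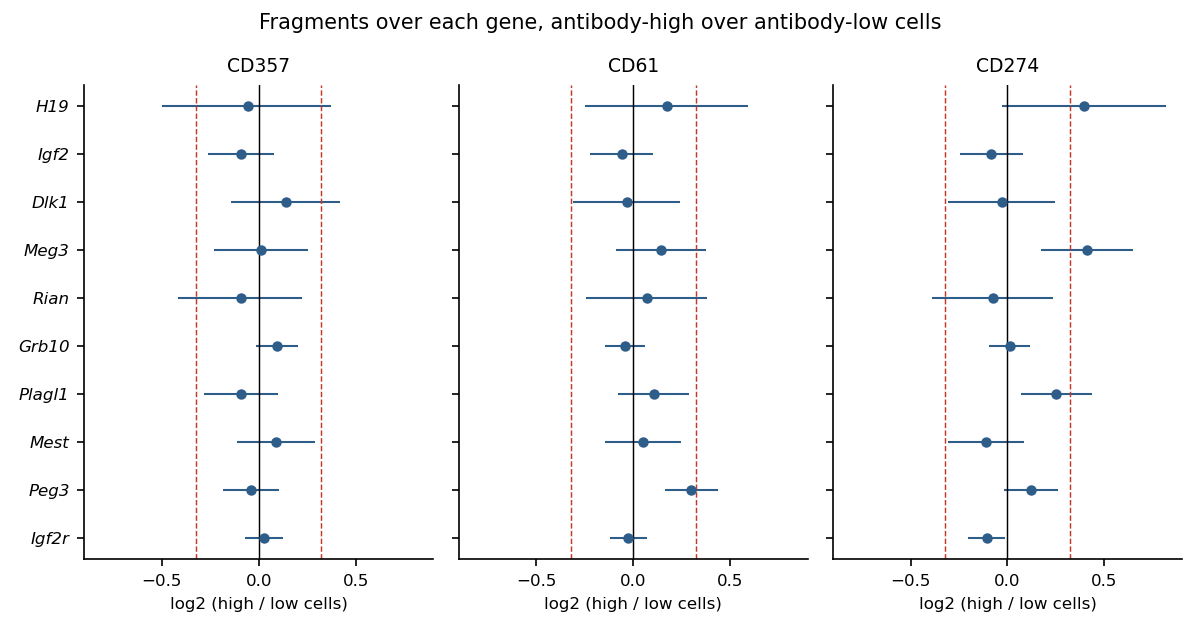
Points give, for 10 imprinted genes, the log2 ratio of CPM in antibody-high over antibody-low cells, with exact 95% conditional binomial intervals, in a panel for each antibody, and dashed lines mark 0.32 in either direction. Peg3 stands at 0.30 in the CD61 panel and Meg3 at 0.41 in the CD274 panel, and the CD357 panel has no interval that leaves out 0.

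Meg3, whose RNA is the maternally expressed product of the Dlk1-Meg3 cluster, had 336 fragments in CD274-high and 270 in CD274-low cells, or 18.0 and 13.6 CPM. The log2 ratio was 0.41 (0.18 to 0.65), at the 99.6th percentile of all genes tested. Over 4 groups of rising CD274 count (2 to 13, 14 to 19, 20 to 27 and 28 to 110 tags), Meg3 stood at 13.6, 13.5, 17.3 and 18.7 CPM. The intervals of the second and the next group overlapped. Splitting on the CD274 count given the other tags gave 0.36 (0.12 to 0.60). In the promoter window alone, with 74 and 68 fragments, the ratio was 0.22 (-0.28 to 0.71), which is not a call. With at least 20 tags required per cell it was 0.32 (0.06 to 0.58), just under the threshold, and it was a call under 10 of 12 alternatives. Of the same cluster, Dlk1 at -0.03 (-0.30 to 0.25) and Rian at -0.08 (-0.39 to 0.23) had intervals around 0.

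Plagl1 had 517 and 464 fragments in CD274-high and -low cells, a ratio of 0.25 (0.07 to 0.44) short of the call. At its imprinted RefSeq start, shown above, the counts were 124 and 91 and the ratio 0.54 (0.14 to 0.95). This start is 1 of 9 further RefSeq starts chosen after seeing the data. Of promoters with at least 90 fragments, 5.69% had an interval above 0 for CD274. H19, with 107 and 87 fragments, had a ratio of 0.39 (-0.03 to 0.82), and its levels in CPM over the 4 CD274 groups were 4.15, 4.63, 5.28 and 6.16. The intervals of all 4 groups overlapped. Without the 2 kb upstream, the H19 ratio was 0.00 (-0.80 to 0.79).

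Igf2r went the other way by a small amount, with 1674 and 1927 fragments and a ratio of -0.11 (-0.20 to -0.01) whose interval lay below 0 under 7 of 12 alternatives, and Airn, with the shared stretch included, stood at -0.12 (-0.21 to -0.03). Over the 4 CD274 groups Igf2r stood at 99.0, 94.1, 91.0 and 88.7 CPM, with overlapping intervals. At both starts the interval included 0, with the Igf2r start at -0.02 (-0.27 to 0.23) and the Airn start at -0.22 (-0.52 to 0.07). In all, 2 of 9 genes had intervals above 0 and 1 below 0 for CD274, where 6.25% and 6.06% of genes did.

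**Figure D4:**
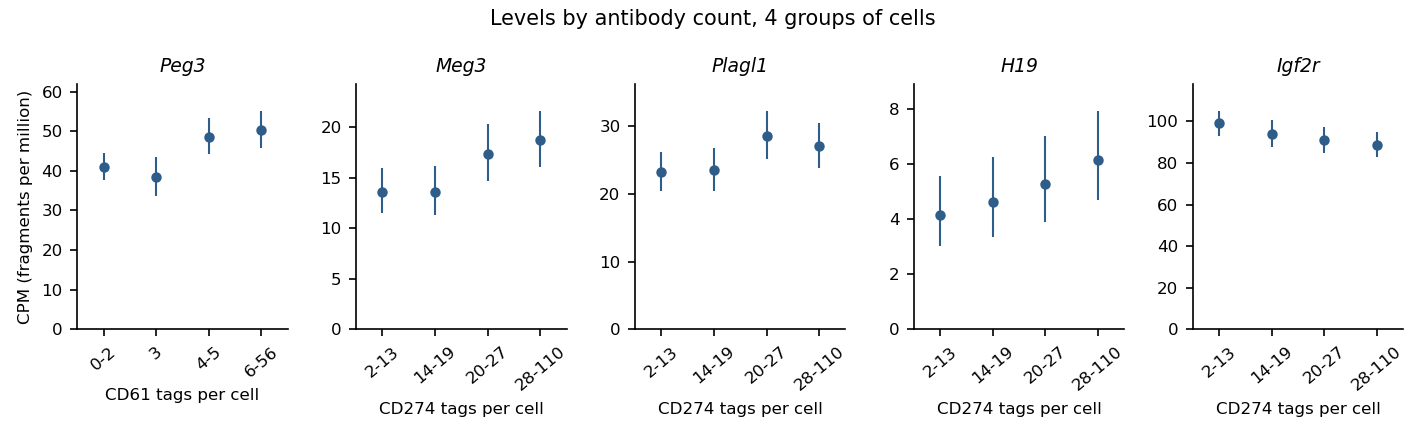
Points give CPM, with exact 95% Poisson intervals, in 4 groups of cells ordered by CD61 tags (Peg3) or CD274 tags per cell (Meg3, Plagl1, H19 and Igf2r), each panel from 0 on its own scale. Between the second and the next group Peg3 steps from 38.4 to 48.7, and Meg3 goes from 13.5 to 17.3 with overlapping intervals.

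For CD61, the gene that differed was Peg3, with 905 fragments in high and 812 in low cells, or 49.4 and 40.1 CPM. Its ratio of 0.30 (0.16 to 0.44) was at the 98.9th percentile of genes and fell just short of the call. Over 0 to 2, 3, 4 to 5 and 6 to 56 CD61 tags, Peg3 stood at 40.9, 38.4, 48.7 and 50.2 CPM. The opening common to Peg3 and Usp29 had a ratio of 0.31 (0.17 to 0.46) from 855 and 760 fragments. These are nearly all of the fragments counted for Peg3, so this is not a separate value. Usp29 counted with 2 kb upstream was at 0.17 (0.04 to 0.30), but that window takes in part of the opening. Of its 1864 fragments, 628 lay over the gene itself, and no ratio was computed for the gene alone. The Peg3 ratio passed 0.32 under 4 of 12 alternative settings and had an interval above 0 under all 12, from 0.18 to 0.38. The other 8 genes had intervals that included 0, and an interval above 0 was seen for 4.17% of all genes tested and one below 0 for 3.78%. For CD274, the ratio of Peg3 was 0.12 (-0.02 to 0.26). At the Peg3 start it was 0.20 (0.01 to 0.40) for CD274 and 0.23 (0.03 to 0.43) for CD61. Among promoters with at least 90 fragments, 4.14% had an interval above 0 for CD61 and 5.69% for CD274. Both splits divide the same fragments of this start, so the values are not independent.

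For CD357, none of the 10 genes had an interval that left out 0, where 3.7% of genes tested had one above and 4.2% one below 0. Their ratios ran from -0.09 for Rian to 0.14 for Dlk1. The annotated start of Grb10 was higher in CD357-high cells, with 105 and 122 fragments and a ratio of 0.46 (0.06 to 0.84), while the whole gene was at 0.09 (-0.01 to 0.20). At its more open RefSeq start 1263 bp downstream, with 745 fragments, the ratio was 0.21 (-0.01 to 0.42), an interval that included 0. Among promoters with at least 90 fragments, 3.02% had an interval above 0 for CD357 and 3.54% below. At the other 9 annotated starts the interval included 0.

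Of the 42 open sites, 1 had an interval above and 3 below 0 for CD357, 5 above and 1 below for CD61, and 3 above and 2 below for CD274. As a guide, 4.14% of promoters with at least 90 fragments were above and 2.95% below 0 for CD61, and 5.69% and 3.37% for CD274. For CD61, 3 of the 5 lay around Meg3: a site 33 kb upstream with 69 and 41 fragments and a ratio of 0.89 (0.32 to 1.49), its neighbour 32 kb upstream with 63 and 38 (0.87, 0.27 to 1.49), and an exonic site 1249 bp downstream with 66 and 39 (0.90, 0.31 to 1.51). The 2 upstream sites, in introns of the noncoding gene Gm34081, were also higher in CD274-high cells, at 0.67 (0.11 to 1.26) and 0.70 (0.11 to 1.32). The large site 16 kb upstream of Dlk1 was slightly lower in CD274-high cells, at -0.19 (-0.37 to -0.01). The other site below 0 for CD274 lay 42 kb upstream of Plagl1, with 45 and 80 fragments and a ratio of -0.73 (-1.30 to -0.19), opposite in sign to Plagl1 itself and its RefSeq start. Apart from the Dlk1 site, these sites hold between 101 and 125 fragments each, and their intervals are wide. They were close to the 10-fold limit over all cells (10.0 to 11.9 times the genome mean by fragment centres), so that they counted as open sites only through the group in which they were higher. Their ratios, and the counts of sites above that include them, are given as a description. The promoters used as a guide were not picked by this limit, so the counts cannot be set against those shares.

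Beside these ratios, the summed marker lists of 8 cell types had intervals that included 0 for CD61 and CD274, with levels from 35.9 (myeloid) to 1142 CPM (HSC) in CD61-high and from 36.9 to 1131 in CD61-low cells. For CD357, the erythroid list (4 genes, among them Klf1 and Slc4a1) was higher in high cells, at 0.18 (0.06 to 0.31), from 58.2 against 51.2 CPM. Most fragments of that list lay over Klf1, with 1759, against 210 over Slc4a1 and fewer over the others. Its ratio therefore mainly describes 1 gene. The HSC list was higher by 0.03 (0.00 to 0.06). The part of other cell types in the CD357 values was not tested.

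In the other imprinted genes, 1 of 39 with at least 200 fragments was called higher and 0 lower for CD357, 0 and 0 for CD61, and 0 and 2 for CD274, with median ratios of 0.03, -0.02 and -0.01. Over all genes tested, 0.764% were called higher and 0.998% lower for CD357, 0.833% and 0.623% for CD61, and 1.03% and 1.34% for CD274. For CD357 the highest were the amino acid transporter gene Slc38a4 at 0.42 (0.03 to 0.80) and Snrpn at 0.28 (-0.08 to 0.63), and the lowest Igf2os at -0.18 (-0.36 to -0.00) and Phlda2 at -0.14. For CD61 they were Nnat at 0.24 (-0.08 to 0.56) and Magel2 at 0.21, and Ins2 at -0.13 and Kcnq1ot1 at -0.10. For CD274 they were Ndn at 0.23 (-0.12 to 0.58) and Sgce at 0.22 (0.08 to 0.36), and the thyroid hormone deiodinase gene Dio3, which closes the Dlk1-Meg3 cluster, at -0.52 (-0.91 to -0.14), with Magel2 at -0.35 (-0.74 to 0.04). Dio3 and Meg3 of the same cluster thus differed in direction for CD274.

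In the IGF pathway, 0 of 23 genes were called for CD357 and CD61, and 1 was called higher for CD274, where 1.03% of all genes were, with median ratios of 0.03, -0.02 and 0.01. That gene was Igfbp2, an IGF binding protein, at 0.36 (0.02 to 0.72), next to Igf2bp2, which binds Igf2 mRNA, at 0.17 (0.07 to 0.27). Igf2bp2 was also the highest for CD61 at 0.13 (0.03 to 0.22), ahead of Igfbp6 at 0.10. The lowest were Igfbp3 and the let-7 regulator Lin28a for both CD61 (-0.20 and -0.18) and CD274 (-0.20 and -0.19). For CD357 the list ran from Igfbp2 at 0.17 and Lin28a at 0.15 to the insulin receptor gene Insr and Igfbp4, both at -0.09.

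Among the partners of these loci, Ins2, beyond Igf2, was lower in CD274-high cells at -0.25 (-0.49 to -0.01), while Copg2 at -0.08 (-0.19 to 0.03), Ddc at -0.05 (-0.17 to 0.08) and Zim1 at 0.40 (-0.16 to 0.96, from 114 fragments) had intervals that included 0. Rtl1 and Mirg, further genes of the Dlk1-Meg3 cluster, held 149 and 82 fragments. The genes whose 3 ratios were most like those of Igf2r were Mcoln2 (Euclidean distance 0.00582 on the log2 scale), C030006K11Rik (0.00866) and 1110032A03Rik (0.00950). This likeness is over 3 values that come from the same cells.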

How the data were processed

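The deposited ATAC values are counts made by the authors with Cell Ranger ARC 2.0.2 on mm10, per the submitters' processing notes: 1 line per fragment, with duplicates collapsed and ends shifted for the transposase. The deposited antibody values are counts of tags per cell, made with CITE-seq-Count (version not stated). Of 43705382 fragments in the file, 39623391 lay in barcodes with antibody counts. Barcodes with at least 10 tags were kept, and doublets were not removed, although 253 cells (6.97%) had an excess of sites covered by 3 or more fragments.

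Fragments were counted over GENCODE M21 genes plus 2 kb upstream, promoters (1 kb on each side of the start), control regions placed by distance from annotated starts, and open sites, with Python 3.11.15, numpy 2.4.6, pandas 2.3.3, scipy 1.17.1, numba 0.67.0 and matplotlib 3.10.9. The programs were tested on simulated data. Ratios were compared over genes with at least 200 fragments (20540 genes, median 1358.5 fragments).

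The 10 genes and all lists (other imprinted genes, IGF pathway, imprint factors, partners and cell type markers) were chosen with earlier results of these data known. A further erythroid marker is not reported here, and the erythroid list was summed over the other 4. Named beside the 10 genes are the partners, the 2 highest and 2 lowest genes of each list with at least 200 fragments, imprint factors, the genes nearest a site, and the 3 genes nearest to Igf2r over the 3 ratios. The relative overlap, its threshold of 0.25 and the further RefSeq starts were chosen after seeing the data. Alternatives concerned the cells kept, the window counted, the scaling, the reads behind a fragment, thinning to 6000 fragments per cell, and the antibody split.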

Additional observations from a re-analysis of the deposited data

How the results depend on the processing

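No paired analysis was possible because there was 1 pool of cells and no comparison of groups of samples. The summed level of the 10 genes, 336 CPM, was 318 without the 2 kb upstream, 57.8 in promoters only and 894 when scaled to promoter fragments in place of nuclear fragments, which follows from the window and the scale. In promoters only, the summed log2 ratios were 0.085 (-0.04 to 0.21) for CD357, 0.14 (0.02 to 0.26) for CD61 and 0.11 for CD274, each higher than over whole genes, and the cause was not tested. The share of cells with overlapping fragments was 25.9% when an overlap of 50 bp was required, against 31.0% on autosomes and 30.5% on chromosome X with the same setting. Over the 12 alternatives the summed CD357 ratio ran from -0.01 to 0.085, with every interval including 0. The relative overlap, 0.162 over the 14 regions, lay between 0.134 and 0.214 over 10 alternatives. These included a set without the Peg3 start and a set with the further RefSeq starts added, so the range is not of the 14 regions alone. Of the single genes, 24 of 90 levels and 20 of 360 ratios moved by more than the counting interval. With 1 pool, differences between animals cannot be measured.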

Other observations

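Of 24 other imprinted promoters with at least 5 expected pairs (Airn apart), 6 had a relative overlap below 0.25 (5.6% of all autosomal and 52.0% of X promoters did), 8 lay between 0.25 and 0.5, and 10 at or above 0.5. The 6 were Peg12 at 0.067 (1 pair where 14.8 were expected, 0.002 to 0.375), Usp29 at 0.073 (1 of 13.7, 0.002 to 0.408), Sgce at 0.094 (2 of 21.4, 0.011 to 0.338), Peg10 at 0.137 (3 of 21.9, 0.028 to 0.400), Slc22a3 at 0.137 (1 of 7.30, 0.003 to 0.763) and Peg13 at 0.213 (8 of 37.5, 0.092 to 0.420). The interval of Slc22a3 included 0.407, the value of autosomal promoters of like fragment number. Usp29 shares its start with Peg3, and the windows of Sgce and Peg10, whose starts face away from each other at nearly the same place, are largely the same, so that these are not independent values.

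The values formed a continuous range above these. Between 0.25 and 0.5 lay Slc22a18 at 0.310, Kcnq1ot1 at 0.320, Zrsr1 at 0.328, Phlda2 at 0.333, Phactr2 at 0.368, Asb4 at 0.385, Commd1 at 0.423 and Ppp1r9a at 0.426. The other 10 ran from Ube3a at 0.518 to Copg2 at 0.714, and the paternally expressed Zdbf2 was among them at 0.566 (9 of 15.9, 0.259 to 1.07). Values of autosomal promoters of like fragment number run from 0.407 (201 to 400 fragments) to 0.609 (1601 to 3200), and each value rests on the pairs of 1 pool of cells.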
